A study of Mus musculus with 2 samples.

Results

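T cells with transcripts of Ramp3, Pxdc1, Krt83, Cd40lg, Icos or Vps37b but none of Cd4 were examined in 2 single-cell RNA sequencing libraries of mouse lung immune cells. A barcode was kept with at least 300 detected genes and under 10% mitochondrial UMIs (unique molecular identifiers, each counted as 1 captured transcript). A kept barcode entered the gate with at least 1 UMI over the CD3 genes Cd3d, Cd3e and Cd3g and with at least 2 of the 6 marker genes found, of which 1 had to be Ramp3, Pxdc1 or Krt83. It also had to lack UMIs of Cd4, Cd8b1, Trdc, Foxp3 and Cd79a and to hold at most 1 UMI over C1qa, C1qb and C1qc. The gate held 3119 of 16932 kept barcodes, which were 1155 of 6794 in the oil library and 1964 of 10138 in the tamoxifen library. The members were thus chosen by their own transcript counts, so their marker levels and the absence of Cd4, Cd8b1, Trdc and Foxp3 are descriptions and not results.

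Both libraries came from adult mice with the genotype Gli1creERT/Hhipflo/flox, in which Cre recombinase made inducible by tamoxifen is expressed in Gli1-positive mesenchymal cells and Hhip, an extracellular inhibitor of Hedgehog signalling, is flanked by loxP sites. The control mice were injected with oil and the other mice with tamoxifen, so Cre and the floxed alleles were shared by both groups and the deletion was aimed at mesenchymal cells, not at the immune cells that were sorted. Mice received 3 µg of a CD45 antibody into the circulation 3 min before they were killed. From the digested lung, live cells that stained for CD45 but not for the injected antibody were sorted and run on 10x Genomics 3' v3 chemistry. The number, sex and exact age of the mice behind each library are not given in the sources used here. No group had a replicate library, so no test was made, and every interval below is a 95% interval that covers counting error only.

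T cells that carry an alpha-beta receptor but neither Cd4 nor Cd8 transcripts include innate-like lineages, which acquire effector functions during thymic development. Mucosal-associated invariant T (MAIT) cells recognise microbial vitamin B metabolites on MR1 with a receptor alpha chain built from Trav1 and Traj33, and invariant natural killer T (iNKT) cells recognise lipids on CD1d with a chain built from Trav11 and Traj18. Both lineages depend on the transcription factor PLZF, encoded by Zbtb16, and each has a subset that makes interleukin 17. Ramp1 and Ramp3 encode accessory proteins of the receptors for calcitonin gene-related peptide (CGRP) and adrenomedullin, which sensory nerves and other cells release in the lung, and Calca encodes CGRP and calcitonin.

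The oil library held 10342 barcodes and 57704412 UMIs and the tamoxifen library 12980 barcodes and 83730550 UMIs. The mitochondrial limit was exceeded by 31.9% of oil and 20.7% of tamoxifen barcodes. Gated cells had a median of 6387 UMIs in oil and 5670.5 in tamoxifen. The 2 libraries shared 41 barcode sequences, 1 of which was gated in both. Hhip had 50 UMIs over all oil barcodes and 30 over all tamoxifen barcodes, of which 1 and 10 were in gated cells, so these immune libraries hold no check of its deletion in the mesenchyme.

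Most gated cells held most of the markers. All 6 were found in 338 oil cells and 616 tamoxifen cells, 5 in 357 and 617, 4 in 229 and 355, 3 in 137 and 223, and only 2 in 94 and 153. Expression was summed over the cells of a gate and scaled to counts per 1000000 UMIs of that gate (CPM). Ramp3 stood at 565 CPM in oil and 616 in tamoxifen gated cells, against 11.5 and 6.75 in the T cells that met every other condition but not the marker condition (521 oil and 1052 tamoxifen cells, called other CD4-negative T cells here). Pxdc1, whose product is little characterised, stood at 541 and 513 CPM, and Krt83, a hair keratin, at 166 and 211. Cd40lg, the CD40 ligand by which T cells activate B cells and dendritic cells, stood at 428 and 375 CPM. Icos, a costimulatory receptor, stood at 958 and 996 CPM, and Vps37b, a subunit of the ESCRT-I sorting complex, at 1240 and 1333. Cells at the edge of the gate were less uniform. With only 2 markers found, Ramp3 stood at 103 CPM in oil and 102 in tamoxifen, and Cd74, an invariant chain of antigen-presenting cells, at 12763 and 6278 CPM. Just outside, cells with exactly 1 marker had 29.0 and 20.7 CPM of Ramp3 and 14388 and 9489 CPM of Cd74.

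The same marker condition was met by many T cells of other lineages. It was met by 50.0% of oil and 53.7% of tamoxifen CD4 T cells (324 and 574 cells with a Cd4 UMI and the other exclusions), and by 50.0% and 47.8% of CD8 T cells (206 and 387 cells with a Cd8b1 UMI). Of gamma-delta T cells (252 and 363 cells with a UMI of Trdc, the delta-chain constant gene), 76.6% and 69.4% met it. Regulatory T cells met it in 34.8% and 33.6%. So did cells without CD3 UMIs, NK cells in 43.2% and 42.3% and type 2 innate lymphoid cells (ILC2, with Il1rl1 and Gata3) in 49.7% and 33.9%, and B cells, the background here, in 13.9% and 10.1%. The markers were thus found on cells with and without Cd4.

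Gated cells carried alpha-beta receptor transcripts. Not every gated cell is thereby shown to be an alpha-beta T cell, since gamma-delta T cells held Trac as well and a Trdc UMI can be missed. Trac, Trbc1 or Trbc2, the constant genes of both chains, had at least 1 UMI in 94.8% (interval 93.4 to 96.0) of gated cells in oil and in 96.2% (95.2 to 97.0) in tamoxifen. Trac stood at 347 CPM in oil and 302 in tamoxifen, below the 652 and 635 CPM of CD4 T cells that met the marker condition, and above the 118 and 102 CPM of gamma-delta T cells. After thinning each cell to 1500 UMIs, to compare gates at 1 depth, 37.2% (34.3 to 40.2) of gated cells in oil and 35.1% (33.0 to 37.3) in tamoxifen had a Trac UMI. Thinning left out 56 oil and 52 tamoxifen gated cells with fewer UMIs. Without thinning the shares were 72.4% and 68.9%. B cells had a Trac UMI in 0% of 155 oil and 0.366% of 273 tamoxifen cells after thinning.

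Gamma-chain transcripts were common as well. How many gated cells were gamma-delta T cells with a missed Trdc UMI was not measured. Tcrg-C1, Tcrg-C2 or Tcrg-C4, the constant genes of the gamma chain, were found in 70.5% (67.8 to 73.1) of oil and 74.2% (72.2 to 76.2) of tamoxifen gated cells. Among gamma variable segments, Trgv2 led with 1409 of 1934 UMIs in oil and 2520 of 3412 in tamoxifen. The same segment led in CD8 T cells, with 221 of 269 and 441 of 549 UMIs, and in gamma-delta T cells, with 179 of 388 and 286 of 567. Of the gamma-delta receptor list, 7 of 9 measured genes were higher in gated cells than in other CD4-negative T cells (4.05% over all genes). They included Tcrg-C1, Tcrg-V1, Tcrg-V4 and Blk. Against other CD4 T cells, 3 of 9 were higher (3.68% over all genes), namely Tcrg-V4, Sox13 and Blk. None was lower in either comparison, where a gene had to differ at least 2-fold in both libraries. Some gamma-delta genes were lower in gated cells than in gamma-delta T cells. Trdv4, a delta-chain variable segment, stood at 1.74 CPM in oil and 0.708 in tamoxifen gated cells. Gamma-delta T cells had 443 and 358 CPM of it, but Trdc, of the same chain, set these gates apart. Cd163l1, which encodes the scavenger receptor SCART1, stood at 2.86 and 2.67 CPM in gated cells against 451 and 414 in gamma-delta T cells. Tcrg-V6, the segment of a lung gamma-delta subset that makes interleukin 17, had 10 and 14 UMIs in gated cells against 104 and 163 in gamma-delta T cells.

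Variable segments of the alpha chain were seen in few cells, since reads of 3' libraries rarely reach them. Any Trav segment was found in 181 oil and 249 tamoxifen gated cells, with 303 and 388 UMIs. Trav11, the segment of iNKT cells, led in both libraries, with 109 UMIs in 60 oil cells and 82 UMIs in 48 tamoxifen cells. Those were 35.97% (30.6 to 41.7) of Trav UMIs in oil and 21.1% (17.2 to 25.5) in tamoxifen. Trav3-3 came next, with 31 UMIs in 23 cells and 37 UMIs in 27 cells. Trav1, the segment of MAIT cells, had 19 UMIs in 13 oil cells and 37 UMIs in 33 tamoxifen cells, 6.27% (3.82 to 9.62) and 9.54% (6.80 to 12.9) of Trav UMIs. No gated cell had UMIs of both Trav1 and Trav11, and 44 Trav segments were found in oil and 53 in tamoxifen gated cells. All Traj segments, Traj18 and Traj33 among them, were at 0 UMIs in every T cell gate, so the joined chains that define both lineages could not be read.

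The ends of 4 alpha segments are shown because the reading of the lineage rests on telling them apart. Each line gives the last 120 bases of exon 2 on the plus strand of chromosome 14, from the GENCODE M21 transcripts on GRCm38, with capitals from the codon of the conserved cysteine to the end of the segment, where the joining segment attaches. Trav11 lies at chr14:53519740-53519859, Trav11n, a close relative of it, at chr14:53135559-53135678, Trav3-3 at chr14:53666387-53666506 and Trav1 at chr14:52428757-52428876.
Trav11: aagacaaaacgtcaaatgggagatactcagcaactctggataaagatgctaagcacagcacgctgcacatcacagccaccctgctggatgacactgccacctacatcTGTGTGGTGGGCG
Trav11n: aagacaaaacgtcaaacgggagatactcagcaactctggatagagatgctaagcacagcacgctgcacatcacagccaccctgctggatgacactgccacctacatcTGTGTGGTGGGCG
Trav3-3: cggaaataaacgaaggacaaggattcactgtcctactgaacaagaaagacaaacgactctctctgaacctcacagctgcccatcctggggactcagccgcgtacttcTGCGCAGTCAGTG
Trav1: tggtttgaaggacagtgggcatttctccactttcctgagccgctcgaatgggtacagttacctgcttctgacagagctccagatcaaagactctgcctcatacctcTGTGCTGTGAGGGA
Trav11 and its duplicate Trav11d are identical over all 342 bases compared, and the files count no UMI for Trav11d, so the UMIs listed under Trav11 cannot be assigned to 1 of the 2 copies. Trav11 and Trav11n differ at 8 of 343 bases (97.7% identical).

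In the other gates Trav11 was rare. It had 2 and 0 UMIs in marker-positive CD4 T cells (of 63 and 79 Trav UMIs in oil and tamoxifen), none in other CD4 T cells (of 27 and 65), and 2 and 2 in CD8 T cells (of 58 and 88). Other CD4-negative T cells had 5 of 50 and 4 of 65. Trav1 was not particular to gated cells by these counts, with 9 of 58 and 7 of 88 Trav UMIs in CD8 T cells. Trav3-3, with 10.2% and 9.54% of Trav UMIs in gated cells, made up 11.1% and 3.80% in marker-positive CD4 T cells.

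**Figure D1:**
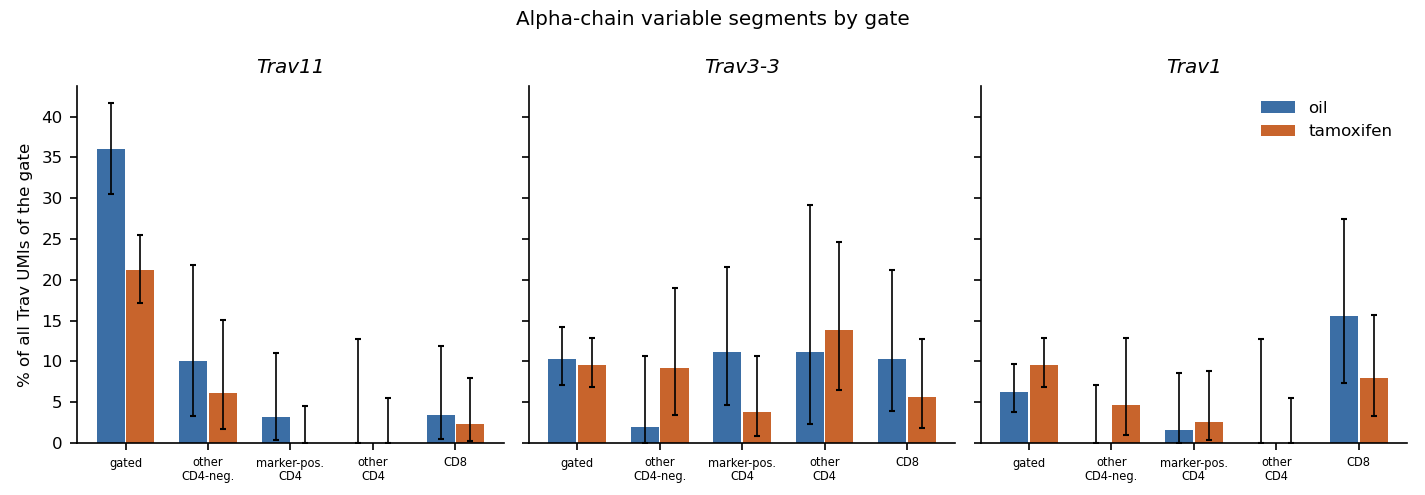
Share of all Trav UMIs of a gate (y axis, percent) that came from Trav11, Trav3-3 or Trav1, for 5 T cell gates (x axis) in the oil (blue) and tamoxifen (orange) libraries, with 95% Clopper-Pearson intervals. Trav11 reached 35.97% and 21.1% in gated cells, and its intervals there lay above those of the CD4 and CD8 gates in the same library.

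Beta segments were spread over several genes. In oil gated cells, 176 Trbv UMIs fell in 153 cells, led by Trbv1 with 35 UMIs, Trbv19 with 23, Trbv13-2 with 22 and Trbv13-3 with 21. In tamoxifen, 279 UMIs fell in 235 cells, with 50 for Trbv19, 46 for Trbv13-3, 38 for Trbv1 and 36 for Trbv13-2. Trbv19, Trbv13-2 and Trbv13-3 are the usual partners of Trav1 in MAIT cells, and Trbv13-2 and Trbv1 are among those of Trav11 in iNKT cells. The leading beta segments of marker-positive CD4 T cells were Trbv2 in oil (9 of 37 UMIs) and Trbv3 in tamoxifen (26 of 70).

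Zbtb16, the transcription factor gene of innate-like T cells, was found at 65.0 CPM in oil and 66.8 in tamoxifen gated cells. Gamma-delta T cells stood close to that, at 58.8 and 65.2 CPM. CD8 T cells had 29.5 and 30.5 CPM, other CD4-negative T cells 16.8 and 10.5, marker-positive CD4 T cells 14.3 and 8.28, and other CD4 T cells 1.26 and 2.12. After thinning, 9.55% (7.88 to 11.4) of gated cells in oil and 9.62% (8.34 to 11.03) in tamoxifen had a Zbtb16 UMI, and no B cell had one. In marker-positive CD4 T cells the thinned share was 1.28% (0.156 to 4.55) and 1.01% (0.209 to 2.92). Intervals of the gated cells and of the CD4 gate did not overlap in either library. Without thinning, 31.6% and 30.6% of gated cells had a Zbtb16 UMI. Other genes of the innate-like list did not all go with Zbtb16. Against other CD4 T cells, 2 of 10 measured genes were higher in gated cells (Zbtb16 and Klrb1c; 3.68% over all genes). Lower were 3 of the 10 (Slamf1, Slamf6 and Sh2d1a), against 2.84% over all genes. Against other CD4-negative T cells, 3 of 11 were higher (Zbtb16, Il18r1 and Cxcr6; 4.05% over all genes) and 1 lower (Klrb1c; 13.3% over all genes).

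Type 17 genes were found in far more gated cells than type 1 genes. In oil, 47.7% (44.8 to 50.6) of gated cells had a UMI of Il17a, Il17f or Il23r, and in tamoxifen 46.5% (44.3 to 48.7). Type 1 genes (Tbx21, which encodes T-bet, Ifng and Eomes) were found in 5.63% (4.37 to 7.12) and 4.94% (4.02 to 5.99), and genes of both programs in 1.73% and 1.68%. Il23r, the receptor for interleukin 23, stood at 70.2 and 65.6 CPM, against 83.8 and 77.3 in gamma-delta T cells and 22.9 and 23.5 in marker-positive CD4 T cells. The cytokine genes had another order: Il17f stood at 32.7 and 29.1 CPM in gated cells against 152 and 417 in marker-positive CD4 T cells, and Il17a at 311 and 319 against 674 and 2313. Against other CD4 T cells, 2 of 13 type 17 genes were higher in gated cells (Il23r and Serpinb1a) and 2 lower (Il17a and Il17f). Over all genes, 3.68% were higher and 2.84% lower. After thinning, Il23r was found in 10.01% (8.30 to 11.9) and 10.7% (9.37 to 12.2) of gated cells, and in no B cell. Maf, a transcription factor of type 17 and other effector T cells, stood at 480 and 461 CPM and was found in 78.4% and 78.5% of gated cells unthinned.

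Interferon and type 2 cytokine genes were low. Ifng stood at 6.46 CPM in oil and 5.98 in tamoxifen gated cells, against 70.7 and 59.4 in CD8 T cells and 45.7 and 27.5 in marker-positive CD4 T cells. Eomes had 4 and 3 UMIs and Il4 3 and 7 UMIs over all gated cells. Klrb1c, which encodes the NK1.1 antigen in some strains, stood at 3.85 and 5.35 CPM. Coreceptor genes not used by the rule were sparse as well: Zbtb7b, the CD4 lineage factor ThPOK, was found in 5.71% and 6.47% of cells, against 13.6% and 11.04% of marker-positive CD4 T cells, and Cd8a in 2.77% and 1.12%. A Cd4 UMI can be missed in a cell that expresses the gene, so the lack of Cd4 in the gate does not show that every cell lacked it.

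**Figure D2:**
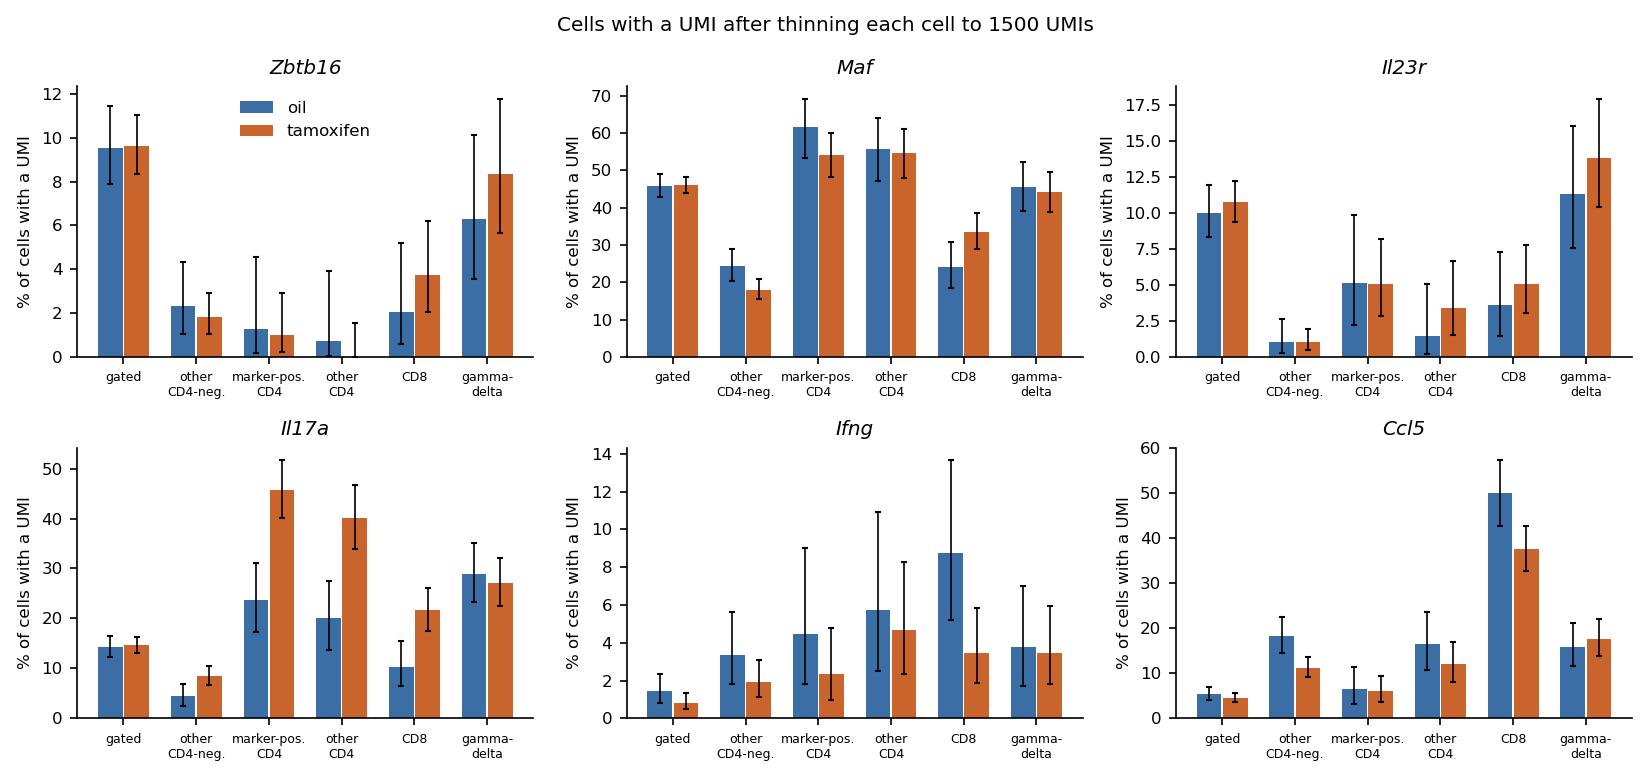
Percent of cells with at least 1 UMI after thinning each cell to 1500 UMIs (y axis) for 6 genes in 6 T cell gates (x axis), in oil (blue) and tamoxifen (orange), with 95% Clopper-Pearson intervals. Zbtb16, at 9.55% and 9.62% of gated cells, lay above both CD4 gates, and Ccl5, at 5.37% and 4.50%, lay below the 50.0% and 37.6% of CD8 T cells.

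Cells with a Trav11 UMI and cells with a Trav1 UMI both held these genes. Of cells with Trav11, 24 of 60 in oil and 14 of 48 in tamoxifen had a Zbtb16 UMI, 40.0% (27.6 to 53.5) and 29.2% (16.95 to 44.1). Of cells with Trav1, 6 of 13 and 12 of 33 had one, 46.2% (19.2 to 74.9) and 36.4% (20.4 to 54.9). Cells with neither segment had a Zbtb16 UMI in 31.0% and 30.5%, so the 3 sets of cells overlapped in their intervals. Il17a was found in 15 of 60 and 11 of 48 cells with Trav11 and in 5 of 13 and 8 of 33 with Trav1. These cells were few, and no order among the 3 sets could be read.

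Summed levels of some genes differed between cells with Trav11 and cells with Trav1 in both libraries, a comparison chosen after the segments were seen. Of 3030 genes measured, 7 were at least 2-fold higher with Trav11 (0.231%) and 13 with Trav1 (0.429%) in both libraries, with intervals beyond 0. These intervals count UMIs and do not cover the spread between the few cells. Ly6c2, 1 of the 7, had its 21 oil UMIs in 3 cells with Trav11 and its 25 tamoxifen UMIs in 4. Barcodes with RNA of other cell types were not left out. Pdcd1, which encodes the inhibitory receptor PD-1, stood at 158 CPM (16 UMIs) in oil and 225 CPM (47 UMIs) in tamoxifen cells with Trav1, against 19.3 CPM (9 UMIs) and 14.2 CPM (5 UMIs) with Trav11. A Pdcd1 UMI was held by 7 of 13 and 17 of 33 cells with Trav1, against 7 of 60 and 5 of 48 with Trav11. Nkg7, a cytotoxic granule gene, stood at 405 and 225 CPM with Trav1 and 58.0 and 93.6 with Trav11. In oil, 7 of 13 cells with Trav1 and 8 of 60 with Trav11 held an Nkg7 UMI. In tamoxifen, 7 of 33 and 12 of 48 did, so its higher CPM with Trav1 there did not come with a larger share of cells. Nrp1, neuropilin 1, stood at 207 and 110 CPM with Trav1 and 42.9 and 34.1 with Trav11. Cells with Trav11 were higher in Cxcl10, an interferon-induced chemokine, at 159 and 170 CPM against 29.6 and 28.7. Top2a, a gene of dividing cells, had 60 and 23 UMIs in cells with Trav11 against 0 and 2.

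Genes of neuropeptide signalling were read next, since Ramp3 and Calca named these cells. Ramp1 had a UMI in 88.9% of gated cells in oil and 88.6% in tamoxifen, at 774 and 655 CPM, while Calcrl, the receptor with which RAMP proteins pair, was found in 7.27% and 6.92% (37.6 and 24.3 CPM). Ramp1 and Calcrl were found together in 73 oil and 120 tamoxifen cells. Calca, which the gate did not use, was found in 22.9% (20.5 to 25.4) and 19.1% (17.4 to 21.0) of gated cells at 230 and 188 CPM. Marker-positive CD4 T cells had 74.3 and 30.9 CPM of Calca, gamma-delta T cells 157 and 166, and ILC2 538 and 580. Calca was therefore not highest in gated cells. The 10 cells with most Calca held 17.8% and 13.1% of its UMIs.

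Cxcr6 and Il18r1 were found in most gated cells. Cxcr6, a chemokine receptor of tissue-resident lymphocytes, stood at 573 and 536 CPM and was found in 83.1% and 80.6% of gated cells. Il18r1, a receptor for interleukin 18, was found in 80.0% and 77.6%, at 326 and 306 CPM. Cells of the CD4, CD8 and gamma-delta gates held Cxcr6 at similar levels, between 416 and 613 CPM over both libraries, against 138 and 95.6 in other CD4-negative T cells. Of the 11 measured genes of the tissue residency list, 2 were higher in gated cells than in other CD4-negative T cells (Cxcr6 and Crem) and 2 lower (Itga1 and Itga4), with list median log2 ratios of -0.01 and 0.08. Over all genes, 4.05% were higher and 13.3% lower, with medians of -0.14 and -0.15.

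Across all genes, the gated cells were next set against the other CD4-negative T cells, a contrast that the marker condition itself drew. A gene counted as apart when it differed at least 2-fold the same way in both libraries. Of 11218 genes measured, 454 were higher in gated cells (4.05%) and 1495 lower (13.3%). The lower genes named by size were macrophage genes such as Chil3, at 130 CPM in oil and 599 in tamoxifen gated cells against 1937 and 4101, Mrc1, Lpl and Lyz2. Barcodes with at least 20 UMIs summed over the markers of another cell type, called mixed here, made up 30.9% of oil and 49.0% of tamoxifen cells in the comparison gate, against 7.71% and 11.3% of gated cells. Leaving out mixed barcodes from both gates, a choice made after these values were seen, left 232 of 9691 genes higher (2.39%) and 474 lower (4.89%).

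Without mixed barcodes, the first of the 15 higher genes named, which leave out markers, receptor segments and genes under 50 CPM, was Hk2, hexokinase 2 of glycolysis, at 514 CPM in oil and 467 in tamoxifen against 46.0 and 35.5. Sdc1, syndecan 1, a heparan sulfate proteoglycan, stood at 90.6 and 111 CPM against 15.9 and 14.2. Kcnk1, a potassium channel gene, stood at 85.5 and 76.1 CPM against 11.7 and 12.4. Lmo4, a LIM domain cofactor of transcription, stood at 1472 and 1282 CPM against 409 and 375. Serpinb1a, a protease inhibitor of the type 17 list, stood at 303 and 325 CPM against 64.4 and 75.7. Il23r, Tiparp, Rrad, Avpi1, Arl5c, Cwc25, Actn2, Prr7, Rhoq and Tmem156 completed the 15 genes named.

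Genes lower in gated cells, again without mixed barcodes, were led by Ly6c2, Clic5, Emp2 and Ccl5. Ccl5, a chemokine of effector T and NK cells, stood at 78.4 and 117 CPM against 1347 and 854 in other CD4-negative T cells. Ly6c2 stood at 7.08 and 16.02 CPM against 257 and 155, and Klrd1, the NK receptor CD94, at 6.31 and 11.3 against 77.7 and 70.9. Hopx, Xcl1, Ms4a4b, Ifitm2, Ifitm3 and Tnfrsf4 were lower too. Clic5, Emp2, Igfbp7, Gsn and Crip2, also among the 15 genes named, are known from epithelial, endothelial or stromal cells, and the part of RNA from such cells was not tested. Of the type 17 list, 5 of 13 measured genes were higher (Il22, Il23r, Il1r1, Tmem176a and Serpinb1a) and none lower, against 2.39% and 4.89% over all genes. With mixed barcodes included, 9 of the 13 were higher (4.05% over all genes), Maf and Ccr6 among them. The list median log2 ratio was then 1.71 in oil and 2.08 in tamoxifen, against -0.14 and -0.15 over all genes. Of the type 1 and cytotoxic list, 10 of 15 were lower without mixed barcodes (4.89% over all genes) and 7 of 16 with them (13.3%), and none was higher. Of the innate-like list, 1 of 11 was higher without mixed barcodes (Zbtb16) and 3 were lower (Klrb1c, Slamf6 and Cd160), against 2.39% and 4.89% over all genes. Of the gamma-delta receptor list, 4 of 9 were higher without mixed barcodes (2.39% over all genes) and none lower.

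Against the lineages with a coreceptor or a delta chain, fewer genes stood apart. Against marker-positive CD4 T cells, 295 of 10436 genes were higher in gated cells (2.83%) and 270 lower (2.59%). The higher genes named again held Sdc1, Kcnk1, Hk2 and Lmo4, with Zbtb16 and Calca. Those named as lower held Tnfsf8, at 39.4 CPM in oil and 44.0 in tamoxifen against 451 and 548, Ctla4, at 126 and 108 against 563 and 546, and Cd5, at 24.1 and 16.7 against 179 and 125. Against other CD4 T cells, 382 of 10376 were higher (3.68%) and 295 lower (2.84%). Against CD8 T cells, 343 of 10405 were higher (3.3%) and 137 lower (1.32%), with Ccl5, Nkg7, Ifng, Klrd1 and Ms4a4b among the lower. Against gamma-delta T cells, 168 of 10444 were higher (1.61%) and 95 lower (0.91%), the fewest of the 5 comparisons in these libraries.

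Against gamma-delta T cells, the higher genes named were led by Ppp1r3b, a glycogen-targeting phosphatase subunit, at 177 CPM in oil and 162 in tamoxifen against 52.0 and 55.9, then Qpct and Lmo4. Cd28, a costimulatory receptor of alpha-beta T cells, stood at 192 and 144 CPM against 71.6 and 64.7, and Lck, a kinase that binds coreceptors, at 139 and 133 against 58.8 and 59.8. The lower genes were led by Cd163l1 and Auts2, and further down held Blk, a Src-family kinase, at 34.7 and 27.5 CPM against 126 and 115, Pdcd1, at 66.3 and 111 against 353 and 373, and Il17a, at 311 and 319 against 966 and 818. Zbtb16 and Il23r were not 2-fold apart between these gates in either library.

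The share of gated cells among all CD3 barcodes did not differ beyond counting error between the libraries. Gated cells made up 38.3% of barcodes with a CD3 UMI in oil (36.5 to 40.0; 3019 barcodes) and 38.3% in tamoxifen (37.0 to 39.7; 5127 barcodes), a log2 ratio of 0.00 (-0.08 to 0.08). Of T cells without Cd4, Cd8b1, Trdc, Foxp3 and Cd79a UMIs they made up 68.9% and 65.1% (-0.08, -0.14 to -0.02). Of all kept barcodes they made up 1155 of 6794 in oil (16.1 to 17.9%) and 19.4% (18.6 to 20.2) in tamoxifen, a log2 ratio of 0.19 (0.09 to 0.28). That ratio differed between the sexes of the cells, which were read from Xist and from Y-linked genes. Cells with UMIs of both or of neither were given no sex and entered no value by sex. They were 171 oil and 387 tamoxifen gated cells, so female and male cells together do not make up the pooled share. In female cells the shares were 18.8% and 18.7% (log2 ratio -0.01, -0.13 to 0.11), and in male cells 20.1% and 25.2% (0.33, 0.13 to 0.52). Of CD3 barcodes, gated cells made up 36.7% and 35.7% in female and 49.9% and 49.6% in male cells. ILC2 went from 2.87% of kept barcodes in oil to 0.552% in tamoxifen and NK cells from 1.94% to 0.513%.

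Il17a differed little between the libraries in gated cells. It stood at 311 CPM in oil and 319 in tamoxifen, a log2 ratio of 0.04 (-0.03 to 0.11), and was found in 22.1% and 22.7% of gated cells. In the same libraries Il17a was higher with tamoxifen in marker-positive CD4 T cells (674 and 2313 CPM, log2 ratio 1.78, 1.67 to 1.89), in other CD4 T cells (1.96, 1.83 to 2.09) and in CD8 T cells (1.77, 1.61 to 1.92), and lower in gamma-delta T cells (-0.24, -0.34 to -0.14). It was also higher in other CD4-negative T cells (94.6 and 271 CPM, 1.52, 1.34 to 1.70). The intervals of the gated cells and of those gates did not overlap. Regulatory T cells had a log2 ratio of 0.02 (-0.38 to 0.42), with an interval that overlapped that of gated cells. The difference between gates was not tested. Few cells held much of the Il17a: the 10 gated cells with most UMIs had 32.0% of them in oil and 20.5% in tamoxifen. Such a share was not read in the other gates. By sex of the cells, Il17a went from 351 to 411 CPM in female and from 306 to 224 CPM in male gated cells, so the pooled value joins opposite directions. This difference between the sexes was not tested.

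**Figure D3:**
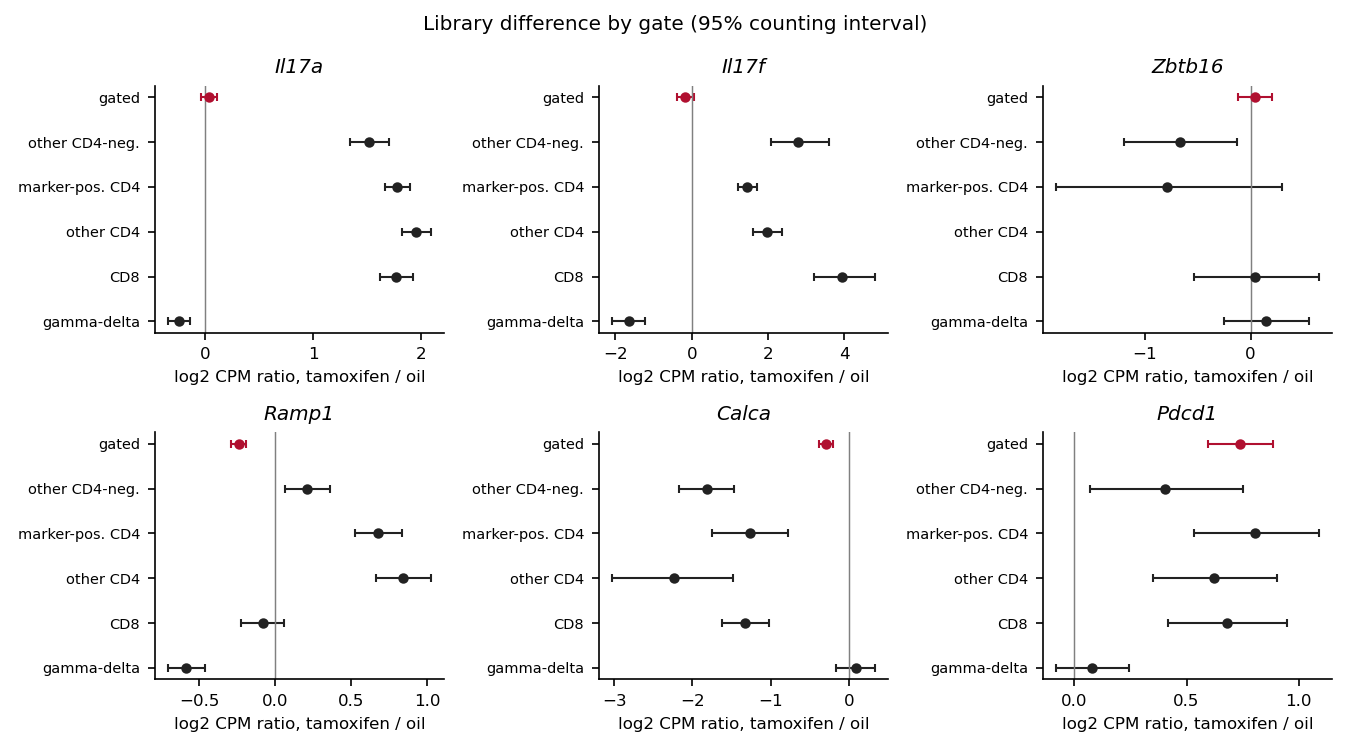
Log2 ratio of CPM, tamoxifen over oil (x axis), for 6 genes in 6 T cell gates (y axis), with exact 95% intervals for a ratio of 2 counts. Points are drawn where a gate had at least 20 UMIs over both libraries. Gated cells (red) sat at 0.04 for Il17a, away from the CD4 and CD8 gates, and at 0.74 for Pdcd1, near them.

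Other genes of the type 17 and innate-like lists differed less than 2-fold between the libraries. Zbtb16 had a log2 ratio of tamoxifen over oil of 0.04 (-0.12 to 0.20), Il23r of -0.10 (-0.25 to 0.06) and Il17f of -0.17 (-0.40 to 0.07), with intervals that held 0. Il22, an epithelial barrier cytokine, stood at 16.8 and 31.2 CPM (0.90, 0.61 to 1.19), with UMIs in 12 oil and 30 tamoxifen cells. Calca was lower with tamoxifen in gated cells, 230 and 188 CPM (-0.29, -0.38 to -0.21). In marker-positive CD4 T cells it went from 74.3 to 30.9 CPM (-1.26, -1.75 to -0.78). By sex, Calca in gated cells went from 252 to 168 CPM in female and from 178 to 262 CPM in male cells. Ramp1 had a log2 ratio of -0.24 (-0.29 to -0.19) and Ramp3, a gene of the rule, of 0.12 (0.07 to 0.18).

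Cells with Trav11 made up a smaller share of gated cells in the tamoxifen library, at 5.19% (3.99 to 6.64) in oil and 2.44% (1.81 to 3.23) in tamoxifen. In female cells the share was 5.29% (3.75 to 7.21) in oil and 1.82% (1.13 to 2.77) in tamoxifen, and in male cells 5.63% (3.25 to 8.99) and 4.73% (2.91 to 7.21). The female intervals were apart and the male intervals overlapped. The difference between the sexes was not tested. Trav1 was found in 1.13% (0.601 to 1.92) and 1.68% (1.16 to 2.35) of gated cells, with intervals that overlapped. Fewer cells with this chain and less transcript per cell cannot be told apart from these counts.

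Over all genes, 508 of 11908 were at least 2-fold higher with tamoxifen in gated cells (4.27%) and 217 lower (1.82%), with intervals beyond 0. The largest differences lay in genes of other cell types held by few barcodes. Ngp, a neutrophil granule gene, had 0 UMIs in oil and 2896 in 19 tamoxifen cells (228 CPM), 99.7% of them in 10 cells. S100a8, another neutrophil gene, went from 8.95 to 1515 CPM, with 95.9% of the tamoxifen UMIs in 10 cells. Retnlg, Camp, Lcn2, S100a9, Wfdc21, Fabp1, Krt79, Cybb, Ear2 and Spp1, the other genes named as higher, are known from neutrophils and macrophages. Among the 7 named as lower, Ccl22, Il12b, Fscn1, Mgl2 and Ccl17 are known from dendritic cells. Ccl22 went from 122 to 41.1 CPM, with 63.6% and 69.8% of its UMIs in 10 cells.

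Marker sums of other cell types moved with these differences. Over gated cells, the 6 neutrophil markers summed to 25.6 CPM in oil, where 2 of them were at 0, and to 3263 in tamoxifen. The 7 alveolar macrophage markers summed to 191 and 961 CPM, and the 8 dendritic cell markers to 6271 and 4209 CPM. Mixed barcodes numbered 89 in oil and 222 in tamoxifen gated cells, with median depths of 16753 and 13537 UMIs against 6239 and 5488 in the others. Without them, 212 of 10723 genes were higher with tamoxifen (1.98%) and 130 lower (1.21%), and the median log2 ratio over all genes was 0.01. Of the 342 genes called then, 195 were called with all gated cells too. The lists that define mixed barcodes hold S100a8, S100a9, Retnlg, Fabp1, Krt79, Ear2 and Ccl22. Lower levels of these genes without mixed barcodes therefore follow from the filter.

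**Figure D4:**
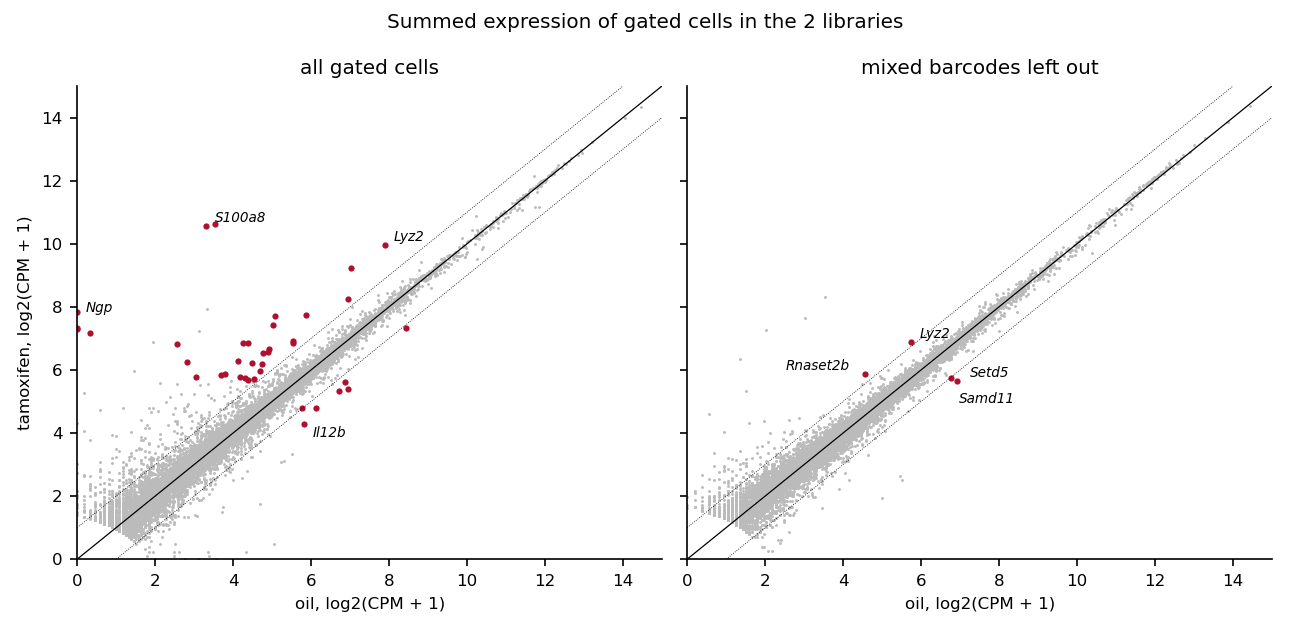
Expression summed over gated cells, as log2(CPM + 1), in oil (x axis) and tamoxifen (y axis), for all gated cells (left) and without mixed barcodes (right). Each point is a gene, and dotted lines mark 2-fold. Red points are genes with at least 50 CPM in the higher library and at least a 2-fold difference beyond counting error. Receptor segments, mitochondrial, ribosomal, haemoglobin, Xist, Y-linked and unnamed genes were not marked red. Ngp, S100a8 and Il12b stand out on the left only, and 4 red points remain on the right. S100a8 is among the genes that define mixed barcodes, so its lower level on the right follows from the filter.

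Only 4 genes that could be named and had at least 50 CPM stood apart between the libraries without mixed barcodes. Receptor segments, mitochondrial, ribosomal, haemoglobin, Xist, Y-linked and unnamed genes were not among those that could be named. Setd5, a gene linked to chromatin, went from 120 CPM in oil to 49.3 in tamoxifen (log2 ratio -1.28, -1.45 to -1.12). Samd11 went from 107 to 53.0 CPM (-1.02, -1.18 to -0.85). Rnaset2b, a copy of a lysosomal ribonuclease gene, went from 22.6 to 56.9 CPM (1.33, 1.07 to 1.60). Lyz2, the lysozyme of myeloid cells, went from 52.4 to 117 CPM and stood below 1/5 of its level in other barcodes, a level that free RNA can give.

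The first 3 also differed in other gates. Setd5 was lower with tamoxifen in all 10 gates read, with log2 ratios from -1.12 in B cells to -1.58 in marker-positive CD4 T cells, and -1.27 in gated cells. Samd11 was lower in marker-positive CD4 T cells (-1.67), CD8 T cells (-1.34) and B cells (-2.37). Rnaset2b was higher in marker-positive CD4 T cells (1.87), gamma-delta T cells (1.07) and B cells (1.27). Rnaset2b and its near-identical neighbour Rnaset2a can share reads, and Rnaset2a went from 247 to 168 CPM in gated cells.

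Sex of the cells split 2 of these genes. Rnaset2b had 22 UMIs in 700 female oil cells and 397 in 1154 female tamoxifen cells, 4.43 and 53.9 CPM. In male cells it stood at 59.5 and 50.7 CPM, so only female oil cells were low. Samd11 stood at 90.9 and 66.6 CPM in female and at 103 and 12.5 CPM in male cells, so only male tamoxifen cells were low. Setd5 was lower in both, from 108 to 47.0 CPM in female and from 135 to 49.2 in male cells. The mice behind each library are unknown, so the treatment and differences between individual mice cannot be told apart.

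By gene list, counted without mixed barcodes, the type 17 genes had a median log2 ratio of -0.04 and the innate-like genes of 0.01, against 0.01 over all genes. No gene of the type 17 list (13 measured), the innate-like list (11), the tissue residency list (11) or the alpha-beta constant genes (3) passed 2-fold between the libraries. Over all genes only 1.98% were higher and 1.21% lower, so lists this short do not stand out by having none. Of the inhibitory receptor list, 2 of 8 measured were higher (1.98% over all genes), Lag3, at 0.770 and 4.86 CPM, and Cd200, at 0.924 and 15.4 CPM, both low, and the list median was 0.71, against 0.19 with mixed barcodes included. Pdcd1 of the same list did not reach 2-fold but was higher by 0.76 on the log2 scale (0.61 to 0.91), at 79.3 and 134 CPM. With all gated cells Pdcd1 had a log2 ratio of 0.74 (0.59 to 0.89), and marker-positive CD4 T cells (0.81, 0.53 to 1.09) and CD8 T cells (0.68, 0.42 to 0.95) had similar ratios. Gamma-delta T cells (0.08, -0.08 to 0.24) and regulatory T cells (-0.10, -0.37 to 0.18) did not, with intervals that held 0.

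Type 2 genes were lower with tamoxifen in 4 of 11 measured cases (1.21% over all genes), all at low levels, with a list median log2 ratio of -0.64. Without mixed barcodes, Il5 went from 5.24 to 2.58 CPM, Il13 from 5.54 to 1.65, Klrg1 from 5.24 to 1.65 and Arg1 from 10.0 to 4.24. These 4 are ILC2 genes as well, and Il5 was found in 10 oil and 3 tamoxifen gated cells. Gata3, the type 2 factor, went from 104 to 77.6 CPM (log2 ratio -0.42, -0.57 to -0.27) and did not reach 2-fold. Ccr7, a lymph node homing receptor of the naive and recirculating list, stood at 6.31 and 21.1 CPM without mixed barcodes, but over all gated cells it went the other way, from 96.7 to 52.5 CPM (log2 ratio -0.88, -1.03 to -0.73). Cd69, an early activation and residency marker, was lower without reaching 2-fold, at 430 and 340 CPM (-0.34, -0.41 to -0.27).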

How the data were processed

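Single-cell RNA was measured in 2 libraries, oil and tamoxifen, 1 per group. The authors deposited whole-number UMI counts for 31053 genes, for which the submitters' processing notes name Cell Ranger 5.0.1 and GRCm38 (mm10). Its gene annotation is not given in the sources here. Every deposited barcode held at least 500 UMIs.

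Barcodes with fewer than 300 genes or 10% or more mitochondrial UMIs were left out. Gates were set on raw counts, and the members, gene lists and comparisons were chosen with earlier results of these data known. Counts were summed per gate and library and divided by the gate's UMIs. Ratios of counts have exact conditional intervals, shares Clopper-Pearson intervals and ratios of shares a normal interval on the log scale, all at 95% and covering counting error only. A gene differed between libraries at 2-fold or more with an interval beyond 0 and at least 20 UMIs over both; between gates it had at least 20 UMIs in each library and was 2-fold apart the same way in both libraries. With 1 library per group no test was possible, and the spread between mice is not measured.

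Genes named between libraries had at least 50 CPM where higher, ranked by the bound nearest 0, up to 12 each way. Genes named between gates had at least 50 CPM in both libraries, ranked by the smaller log2 ratio, up to 15 each way. The 6 markers, receptor segments, mitochondrial, ribosomal, haemoglobin, Xist, Y-linked and unnamed genes were left out of both, and genes of the 28 lists were named as well; some items are not reported here and were left out of the lists. For detection, cells were thinned to 1500 UMIs (seed 1). Doublets were kept; leaving out those that Scrublet called was an alternative and removed 60 oil and 166 tamoxifen gated cells. Alternatives also changed the marker, CD3, mitochondrial and count limits, scaling, thinning and sex of cells. Segment sequences came from GENCODE M21. The counting steps were tested on simulated data. Python 3.11.15, numpy 2.4.6, scipy 1.17.1, pandas 2.3.3, scanpy 1.11.5 and matplotlib 3.10.9 were used.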

Additional observations from a re-analysis of the deposited data

Results flagged for a closer look

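Several values in gated cells had opposite directions in female and male cells. These differences between the sexes were not tested, and the mice behind each sex and library are unknown. The log2 ratio of tamoxifen over oil for Il17a was 0.226 in female and -0.445 in male cells. Calca went the other way, at -0.583 in female and 0.555 in male cells. Rnaset2b stood at 3.60 and -0.232.

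Genes of dendritic cells split by sex as well. Ccl17 had a log2 ratio of -2.14 in female and 0.808 in male gated cells, Ccl22 of -2.54 and 1.10, and Il12b of -2.72 and 2.66. Il12b was found in 1 male oil and 6 male tamoxifen cells. The share of gated cells among kept barcodes had a log2 ratio of -0.0078 in female and 0.326 in male cells.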

How the results depend on the processing

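No paired analysis was possible because each group has 1 library. Leaving out cells with Tcrg constant UMIs turned the log2 ratio of the share of kept barcodes to -0.00384 and that of CD3 barcodes to -0.19. The share of kept barcodes had -0.0078 in female and 0.33 in male cells. Genes higher with tamoxifen, 508 in all, numbered 293 without Scrublet doublets, 266 in male cells, 212 without mixed barcodes and 214 after thinning. Genes lower with tamoxifen, 217 in all, numbered 120 with at least 3 markers, 139 with at least 3 CD3 UMIs, 130 without mixed barcodes, 105 with at least 50 UMIs per gene and 95 after thinning. Genes higher than in other CD4-negative T cells, 454 in all, numbered 251 with at least 3 CD3 UMIs, 300 without Tcrg cells, 232 without mixed barcodes and 240 after thinning. Those lower, 1495 in all, numbered 696, 669, 474 and 677 under the same 4 choices and 822 in male cells. The share of cells with Zbtb16 in oil and tamoxifen was 5.78% and 6.58% at 1000 UMIs per cell, 16.9% and 17.9% at 3000, and 31.6% and 30.6% unthinned. In male cells Ccl17 (0.81), Ccl22 (1.10), Il12b (2.66) and Rnaset2b (-0.23) changed sign, as did Fscn1 (2.69) without mixed barcodes. Thinning depth sets the shares by construction, and fewer UMIs per gene or cell leave fewer genes to count; otherwise the cause was not tested. Depth also limits the receptor segments, with any Trav UMI in 181 oil and 249 tamoxifen gated cells.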
